A study of Rattus norvegicus with 60 samples.

Results

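The nucleus accumbens and the amygdala of the same rats were set against each other across the genes with signal on the array. Of the 60 arrays of the series, 20 entered the contrast, 10 titled accumbens and 10 titled amygdala, with 5 arrays of each line in each region. NP animal 8 and congenic animal 9 were left out of the accumbens, and congenic animal 3 and NP animal 6 out of the amygdala. The remaining arrays came from 12 animals, and 8 of them (animals 1, 2, 4, 5, 7, 10, 11 and 12) had an array of both regions.

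The study measured total RNA of accumbens, amygdala, frontal cortex, hippocampus and striatum on Affymetrix rat arrays, in 12 rats, 6 from the NP line and 6 from the congenic line. NP is a selected line whose name stands for non-preferring, bred for low alcohol intake, and NP.P in congenic notation is the NP background carrying donor DNA of the preferring line P (the sources used here do not name the segment). All rats were adult (age and sex are not stated in the labels), were housed in pairs with free food and water, were handled daily before decapitation in the morning, and received no agent that the labels name. No RNA was pooled between rats, so an array is 1 region of 1 animal, and both lines carry the NP background.

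The accumbens is the ventral part of the striatum, and most of its neurons are GABAergic medium spiny neurons. These fall into a class with the D1 dopamine receptor, substance P and dynorphin and a class with the D2 dopamine receptor, the adenosine receptor Adora2a and enkephalin. The amygdala joins cortex-like basolateral nuclei, rich in glutamatergic projection neurons, with striatum-like central and medial nuclei whose neurons are mostly GABAergic. Its medial border lies close to the hypothalamus, and its caudal border close to the ventral hippocampus. Tissue samples hold many cell types, so fewer cells of a type and less RNA per cell cannot be told apart.

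Values are the deposited log2 levels of 31042 probe sets after removal of 57 control probe sets. Probe sets at or above a mean of 7.68, the 40th percentile, were tested, which left 18625, and a gene is represented by its brightest probe set, which gave 10378 genes. A difference is the accumbens level minus the amygdala level in log2 units, so that 1 is a 2-fold difference, and a gene was called when its limma adjusted p was under 0.05. Levels of different genes are not set against each other. Within a region the 20 arrays correlated at 0.9828 or above, and between the regions at 0.9642 to 0.9807. The 4 arrays left out stood apart: over the 23 measured medium spiny neuron markers the mean level was 11.25 to 11.76 in the 10 accumbens arrays but 9.56 in the array left out for NP animal 8 and 11.06 in that for congenic animal 9. In the 10 amygdala arrays it was 10.31 to 11.14, against 9.66 in the array left out for congenic animal 3 and 11.80 in that for NP animal 6.

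Among the arrays that were kept, accumbens animal 10 and amygdala animal 8 lay at the edge of their region for many genes. For some results the values without them are also given, but the counts of other gene lists shift without them too. The arrays of the 2 regions also differed in the shape of their values. The 25th percentile was 6.82 to 6.87 in accumbens and 6.67 to 6.73 in amygdala, whereas the 75th was 9.79 to 9.86 and 9.93 to 9.98. The bacterial bioB transcripts added during the assay differed by -0.46 to -0.34 over 6 probe sets, bioC by -0.38 to -0.32, and the cre transcripts by -0.03 to 0.03. For beta-actin the 3′ minus 5′ signal averaged 1.06 in accumbens and 0.95 in amygdala, and for GAPDH -0.05 in both. Technical differences of this kind coincide with region, so their part in the small calls cannot be told apart from it. The plot of percentiles by array shows that the 2 regions did not overlap at the 10th, 25th, 75th and 90th. Small differences therefore move with the scaling. Of the 12871 probe sets called, 897 changed sign after quantile normalization, and 40 of these were then called in the opposite direction. List medians that turn are named in their paragraph or at the end of the text. The part of the array shape in the calls was not tested.

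**Figure D1:**
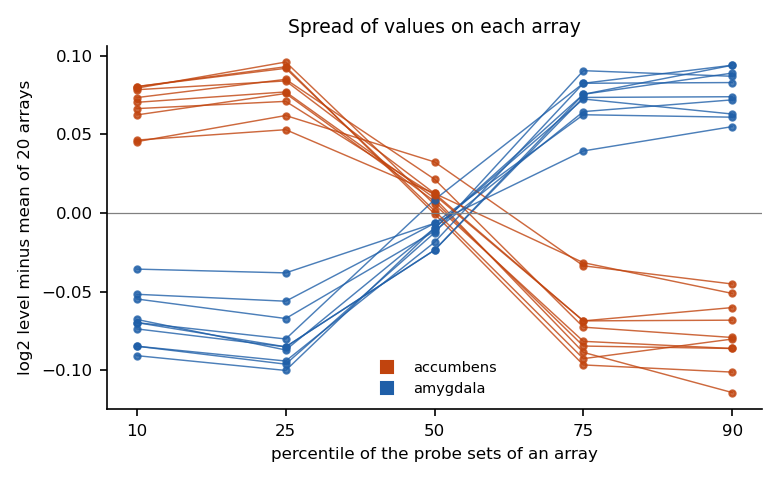
Percentiles of the probe set values of each array, as log2 level minus the mean of the 20 arrays, by percentile; each line is 1 array, accumbens in orange and amygdala in blue. The 10 accumbens arrays were higher at the 25th percentile (6.82 to 6.87 against 6.67 to 6.73) and lower at the 75th (9.79 to 9.86 against 9.93 to 9.98).

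The regions differed in most of what the array measured, but by small amounts. Of 18625 probe sets, 12871 were called (69.1%), 4132 higher in accumbens (22.2%) and 8739 lower (46.9%), with a median absolute difference of 0.18. After quantile normalization 11817 were called (63.4%), 5961 higher (32%) and 5856 lower (31.4%), and with all 24 arrays 9488 (50.9%), 3284 higher (17.6%) and 6204 lower (33.3%). With no filter 21038 were called, 11132 higher and 9906 lower, so the balance of directions depended on the filter. At least 2-fold differences were called for 41 probe sets higher in accumbens (0.22%) and 90 lower (0.483%). Counted by gene, 7389 were called (71.2%), 1955 higher (18.8%) and 5434 lower (52.4%); with all 24 arrays 15.7% of genes were called higher and 37.4% lower, and after quantile normalization 30.7% and 33.3%. Of these, 83 genes differed at least 2-fold, 27 higher in accumbens (0.26% of the genes tested) and 56 lower (0.54%). The 10 arrays of each region did not overlap for 24 of the 27 and 52 of the 56, whereas over all genes the accumbens lay wholly above in 5.82% and the amygdala in 19.2%. All 83 kept their direction and their call after quantile normalization, where 70 were still at least 2-fold, and 82 were called in both lines taken alone. With all 24 arrays 83 kept their direction, 82 were called and 53 were still at least 2-fold. The 83 genes were picked by call and size on these same arrays, so these counts are not independent support. Of 24 other probe sets of these genes, 19 were called in the same direction and 3 in the opposite one.

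The largest difference on the accumbens side was that of Cartpt, the precursor of the CART peptides: the 10 accumbens arrays read 11.83 at the lowest, 12.01 at the median and 12.27 at the highest, and the amygdala arrays 9.12, 9.23 and 9.79. The difference was 2.70 ± 0.08 (SE), 6.51-fold (adjusted p = 5.4e-17), and accumbens was higher in 8 of 8 animals with both arrays. Pcp4l1, a small protein related to the calmodulin regulator PCP4, read 11.43, 11.66 and 11.79 in accumbens against 8.97, 9.27 and 9.85 in amygdala, 5.18-fold (adjusted p = 5.5e-16). Neither gene's arrays overlapped between the regions.

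Rarb, the retinoic acid receptor beta, ranged from 10.79 to 11.44 in accumbens and from 8.91 to 9.66 in amygdala, a difference of 1.98 ± 0.08. Strip2, a component of phosphatase-kinase complexes, differed by 1.95 ± 0.11, and Nexn, an actin-binding protein, by 1.94 ± 0.10. Both were without overlap between the regions. Foxp2, a transcription factor of striatal and cortical neurons, ran from 9.77 to 10.29 in accumbens and from 8.46 to 8.78 in amygdala. Its difference of 1.42 ± 0.06 had a narrow spread in both regions. Slc35d3, a transporter-family protein known for its part in D1 receptor trafficking, differed by 1.43 ± 0.07, Cbr3, a carbonyl reductase, by 1.26 ± 0.08 and Inhba, the inhibin beta A subunit, by 1.25 ± 0.11. Cdhr1, a cadherin-related protein best known from photoreceptors and the olfactory bulb, differed by 1.63 ± 0.18, but accumbens animal 10 read 11.97 against 10.62 for the next array. Without that array and amygdala animal 8 the difference was 1.43.

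**Figure D2:**
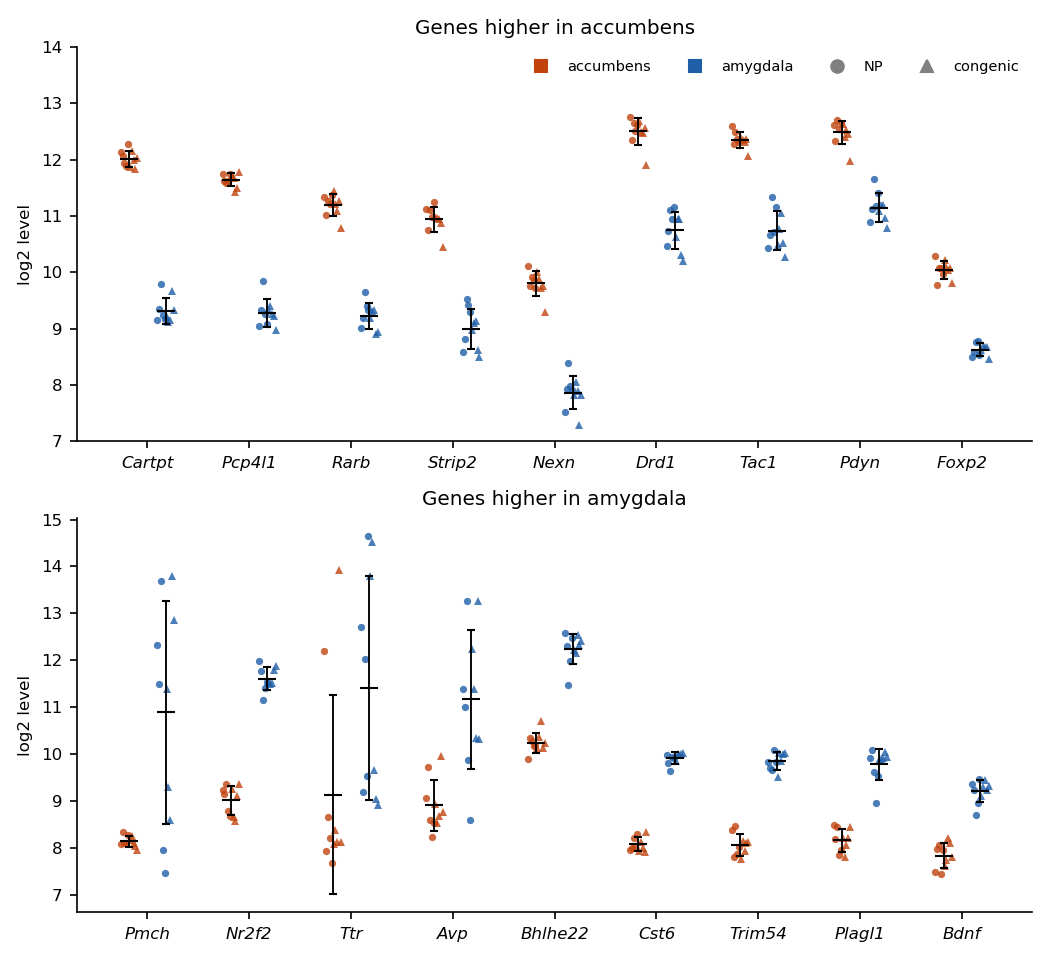
Log2 levels of 18 genes with large differences between regions; each point is 1 array, accumbens in orange and amygdala in blue, circles NP and triangles congenic, with the mean and SD of 10 arrays in black. The accumbens and amygdala points separate for Cartpt (11.83 to 12.27 against 9.12 to 9.79) and Nr2f2 (8.57 to 9.36 against 11.16 to 11.99), whereas those of Pmch, Ttr and Avp overlap.

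Of 26 listed medium spiny neuron markers, 23 were measured and 23 were called higher in accumbens, where 18.8% of the genes tested were called higher. Their differences ran from 0.21 to 1.98 with a median of 0.90, against -0.11 over all genes. When each gene was represented by its probe set of smallest p instead, 22 were called higher and 1 lower, at -0.42. Drd1, the D1 dopamine receptor, read 11.91, 12.54 and 12.75 (lowest, median, highest) in accumbens and 10.20, 10.83 and 11.16 in amygdala, 3.38-fold (adjusted p = 4.97e-12). Its lowest accumbens value was that of animal 10, and the regions still did not overlap. Drd2, the D2 receptor, ran from 9.83 to 10.71 and from 8.62 to 10.10, a difference of 1.15 ± 0.15 with overlapping arrays. Adora2a, the adenosine receptor of the D2 class of cells, differed by 0.87 ± 0.10 without overlap, and Gpr6, an orphan receptor of the same cells, by 1.2 ± 0.08. Markers of both classes of spiny neuron were thus among the genes called higher.

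Scn4b, a sodium channel beta subunit of spiny neurons, differed by 1.42 ± 0.21, and its amygdala arrays ran from 9.79 up to 11.87, inside the accumbens range of 11.68 to 12.39. With the 4 arrays that had been left out put back, 14 of the 23 markers were called and the median was 0.66. Without accumbens animal 10 and amygdala animal 8, 23 were called and the median was 1. Among 31 measured genes of dopamine and cyclic AMP signalling, 17 were called higher and 7 lower (18.8% and 52.4% over all genes), with a median of 0.20. Drd4, the D4 receptor, differed by 0.2 ± 0.04 with overlapping arrays. Pde10a, the phosphodiesterase of spiny neurons, differed by 0.93 ± 0.12, Ppp1r1b, which encodes the dopamine-regulated phosphatase inhibitor DARPP-32, by 0.91 ± 0.11, and Gng7, a G protein gamma subunit of the striatum, by 0.90 ± 0.10. The arrays of these 3 overlapped between regions, and with all 24 arrays none of them was called (adjusted p 0.105, 0.0566 and 0.239). Adcy8, a calcium-stimulated adenylyl cyclase, went the other way: 7.74 to 8.80 in accumbens and 9.45 to 9.78 in amygdala, a difference of -1.49 ± 0.08. The list thus held members at both ends of the contrast.

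Neuropeptide precursors had the widest range of any list tested, from -2.69 to 2.70 over 25 measured genes, 10 of them called higher and 11 lower, where 18.8% and 52.4% of all genes were. The promoters of the 4 precursors that were at least 2-fold higher are shown because these genes are high together in accumbens. The sequences are the 250 bases before the annotated start from RefSeq (GRCr8), 5′ to 3′ on the gene's strand, with capitals marking the cyclic AMP response element core CGTCA or its reverse complement TGACG, which overlap in the full palindrome TGACGTCA. They lie at chr2:32991236-32991485 (minus strand) for Cartpt, chr4:36645333-36645582 (plus) for Tac1, chr3:137366504-137366753 (minus) for Pdyn and chr7:39460889-39461138 (minus) for Nts.
Cartpt: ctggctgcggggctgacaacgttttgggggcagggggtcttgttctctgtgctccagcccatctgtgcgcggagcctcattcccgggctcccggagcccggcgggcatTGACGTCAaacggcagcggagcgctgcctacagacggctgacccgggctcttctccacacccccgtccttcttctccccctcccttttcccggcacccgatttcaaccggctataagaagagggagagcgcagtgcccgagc
Tac1: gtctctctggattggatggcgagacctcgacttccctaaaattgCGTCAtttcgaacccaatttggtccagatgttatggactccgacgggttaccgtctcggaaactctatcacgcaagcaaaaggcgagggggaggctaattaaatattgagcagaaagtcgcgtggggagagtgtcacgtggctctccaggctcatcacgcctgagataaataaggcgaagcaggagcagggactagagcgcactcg
Pdyn: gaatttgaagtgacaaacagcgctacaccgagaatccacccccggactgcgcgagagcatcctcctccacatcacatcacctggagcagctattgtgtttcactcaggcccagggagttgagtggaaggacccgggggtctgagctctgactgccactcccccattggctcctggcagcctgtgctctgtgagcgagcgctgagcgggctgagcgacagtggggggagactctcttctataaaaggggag
Nts: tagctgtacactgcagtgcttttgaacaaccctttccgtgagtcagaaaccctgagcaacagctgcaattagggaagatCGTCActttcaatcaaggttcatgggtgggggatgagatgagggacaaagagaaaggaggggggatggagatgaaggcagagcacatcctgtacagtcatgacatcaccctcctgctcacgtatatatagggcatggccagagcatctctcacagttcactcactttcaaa
The Cartpt window holds the full palindrome, which begins 142 bases before the start and is found in 1.59% of 33469 rat promoter windows of this length. Tac1 has a core beginning 206 bases upstream and Nts 171 bases upstream, and a core on either strand occurs in 18.2% of the windows. These letters are not in the Pdyn window. A match describes the sequence only, and no binding was measured.

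Tac1, the substance P precursor of D1-class neurons, ran from 12.06 to 12.60 in accumbens and from 10.28 to 11.33 in amygdala, a difference of 1.62 ± 0.10. Pdyn, the dynorphin precursor of the same cells, ran from 11.98 to 12.70 and from 10.79 to 11.66, a difference of 1.34 ± 0.08. Nts, the neurotensin precursor, ran from 10.18 to 10.92 and from 9.09 to 9.65, a difference of 1.21 ± 0.09. None of the 3 overlapped between regions, and each was higher in 8 of 8 animals. Penk, the enkephalin precursor, was high on every array, at 13.21 to 13.76 in accumbens and 12.47 to 13.21 in amygdala, and differed by 0.72 ± 0.08 (adjusted p = 6.55e-08); with all 24 arrays it was not called (0.56, adjusted p = 0.201). Smaller differences in the same direction were found for Nmb (0.52), Gal (0.43), Crh (0.41) and Npy (0.31), the precursors of neuromedin B, galanin, corticotropin-releasing hormone and neuropeptide Y. Of these, Npy alone was without overlap between the regions, 12.10 to 12.46 against 11.64 to 12.04, and with all 24 arrays its adjusted p was 0.0504. Pomc, the precursor of the melanocortins and beta-endorphin, was higher by 0.29 ± 0.04 without overlap (7.77 to 8.05 against 7.45 to 7.74).

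Chgb, chromogranin B, ran from 11.89 to 12.26 in accumbens and from 12.29 to 12.62 in amygdala (-0.36 ± 0.05), and Chga, chromogranin A (-0.26 ± 0.04), and Vgf, a secreted granin-like protein (-0.35 ± 0.06; adjusted p = 0.108 with all 24 arrays), overlapped. Adcyap1, the PACAP precursor, was also lower with overlapping arrays (-0.27 ± 0.06). Scg2, secretogranin II, was not called (0.06 ± 0.05, adjusted p = 0.249) but was after quantile normalization (0.17, adjusted p = 0.0029). Tac3, the neurokinin B precursor, was not called (-0.12, adjusted p = 0.103; without animal 12 it was -0.18, adjusted p = 0.00474). Cck, the cholecystokinin precursor, ran from 12.87 to 13.66 and from 13.02 to 13.73 and was not called (-0.07 ± 0.09, adjusted p = 0.503).

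On the amygdala side the precursors with the largest differences were those of hypothalamic hormones, and they varied from array to array. Pmch, the precursor of melanin-concentrating hormone, read 7.95 to 8.34 on the 10 accumbens arrays. On the amygdala arrays it read 7.45, 7.96, 8.58 and 9.30 in animals 12, 11, 4 and 2, then 11.39, 11.50, 12.33 and 12.86 in animals 1, 7, 5 and 10, and 13.69 and 13.79 in animals 8 and 9. The mean difference was -2.69 ± 0.65 (adjusted p = 0.000955), and in 2 of 8 animals the accumbens was the higher. Avp, the vasopressin precursor, was again lowest in amygdala animal 12 (8.59) and highest in animals 8 and 9 (13.27 and 13.26), against 8.23 to 9.96 in accumbens, a difference of -2.23 ± 0.42.

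Oxt, the oxytocin precursor, also read highest in amygdala animals 8 and 9 (11.40 and 11.16) and lowest in animal 12 (7.74); its difference of -0.93 ± 0.36 (adjusted p = 0.024) was not called without animal 1 (0.0639), without animal 2 (0.06), without the arrays of accumbens animal 10 and amygdala animal 8 (0.0812) or with all 24 arrays (0.0948). Hcrt, the orexin precursor, which in the brain is made by lateral hypothalamic neurons, was at 8.05 to 8.34 in accumbens and at 7.73 to 8.37 in 8 amygdala arrays, with 9.00 and 8.84 in animals 8 and 9; the regions were not called different (0.11, adjusted p = 0.448), but with a fixed replicate block, which compares within the animals that have both arrays, Hcrt was called higher in accumbens (0.31, adjusted p = 0.00178). Of 15 listed hypothalamic and basal forebrain markers 7 were measured; 3 were called higher in accumbens (Slc5a7, Gal and Pomc) and 3 lower (Pmch, Avp and Oxt), with a median of 0.11. Their mean level was 8.46 to 9.04 in accumbens and 8.02 to 10.56 in amygdala, with animal 8 the highest. Whether hypothalamic tissue contributed to these differences was not tested.

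**Figure D3:**
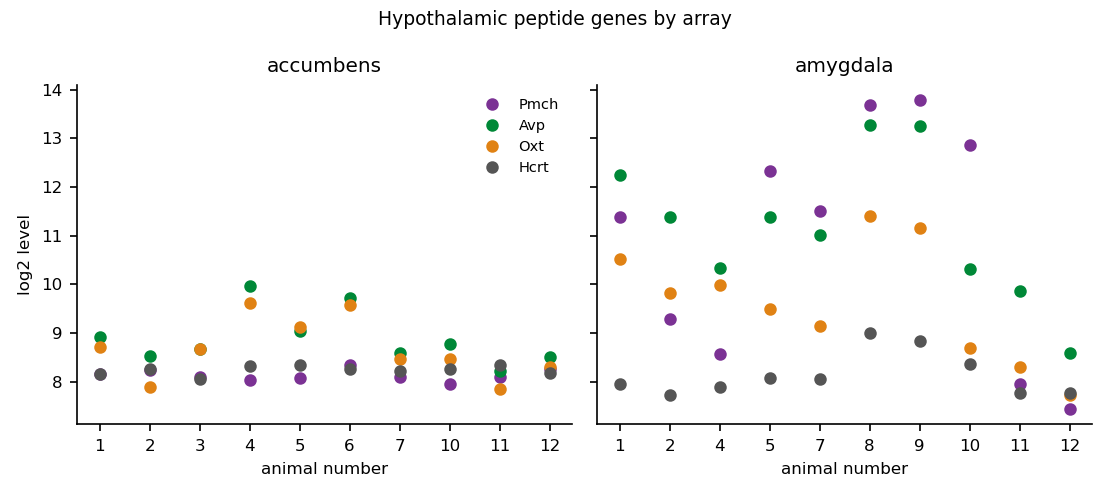
Log2 levels of Pmch, Avp, Oxt and Hcrt on each accumbens array (left) and amygdala array (right), by animal number; each point is 1 array. Pmch stayed between 7.95 and 8.34 in accumbens and ran from 7.45 to 13.79 in amygdala, where animals 8 and 9 were highest for all 4 genes.

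Vip, the precursor of vasoactive intestinal peptide, an interneuron product, was lower in accumbens without overlap (9.39 to 10.16 against 10.19 to 10.98, difference -0.84), and so was Pnoc, the nociceptin precursor (8.05 to 8.43 against 8.78 to 9.29, difference -0.72). Among 19 peptide receptors 6 were called higher and 11 lower, and the share lower was near the 52.4% of all genes. The gene with the largest difference was Sstr1, a somatostatin receptor, which ran from 9.43 to 9.97 in accumbens and from 10.58 to 11.06 in amygdala (-1.2 ± 0.06). Oprl1, the nociceptin receptor, was lower as its ligand's precursor was (-0.60 ± 0.06). Oprk1, the kappa opioid receptor that dynorphin activates, was higher in accumbens (0.51 ± 0.07; 0.42 and adjusted p = 0.0775 with all 24 arrays). Tacr1, the substance P receptor, was also higher (0.48 ± 0.05), and so was Sstr4 (0.48 ± 0.05). Outside the list, Nmbr, the neuromedin B receptor, was among the 15 genes with the largest positive differences: 8.89 to 10.00 against 7.67 to 8.15, a difference of 1.48 ± 0.09. Trhr, the receptor of thyrotropin-releasing hormone, was among the 15 at the other end, 8.57 to 8.89 against 9.82 to 10.45 (-1.39 ± 0.06).

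A nuclear receptor led the amygdala side among the genes whose arrays did not overlap. Nr2f2, known as COUP-TFII and a regulator of caudal and ventral forebrain identity, read 8.57, 9.13 and 9.36 in accumbens and 11.16, 11.54 and 11.99 in amygdala, a difference of -2.59 ± 0.11, 6.02-fold (adjusted p = 2.89e-14). Bhlhe22, a transcription factor of projection neurons, ran from 9.89 to 10.71 and from 11.47 to 12.57 (-2.02 ± 0.10). Plagl1, an imprinted zinc finger gene, differed by -1.61 ± 0.11. Cst6, a cysteine protease inhibitor, ran from 7.90 to 8.33 and from 9.63 to 10.02 (-1.83 ± 0.06), and Trim54, a tripartite-motif protein described mainly in muscle, from 7.76 to 8.47 and from 9.51 to 10.09 (-1.78 ± 0.08). Each of these was lower in accumbens in 8 of 8 animals.

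Other genes among the 15 with the most negative differences encode signalling and secreted proteins. Pnck, a calcium/calmodulin-dependent kinase on chromosome X, had the smallest adjusted p of the named genes: 10.08 to 10.34 in accumbens and 11.60 to 11.94 in amygdala, a difference of -1.53 ± 0.04 (adjusted p = 2.31e-17). C1ql3, a secreted synaptic organizer, differed by -1.59 ± 0.17; the values were -1.95 in NP and -1.25 in the congenic line, and the difference between lines was not called (adjusted p = 0.397). Bdnf, the neurotrophin that acts on TrkB, ran from 7.44 to 8.21 and from 8.70 to 9.47 (-1.39 ± 0.10). Rasal1, a Ras GTPase-activating protein, differed by -1.34 ± 0.05, and Nptxr, the neuronal pentraxin receptor, which clusters AMPA receptors, by -1.31 ± 0.07.

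Ttr, which encodes the thyroid hormone carrier transthyretin and in the brain is made by the choroid plexus, varied widely within both regions and was lower in accumbens in 7 of 8 animals. In accumbens 8 arrays lay between 7.68 and 8.65, and animals 5 and 4 read 12.19 and 13.93. In amygdala 5 arrays lay between 8.90 and 9.65, and 5 between 12.02 and 14.65. The difference of -2.27 ± 0.89 (adjusted p = 0.0276) was not called without animal 1, 2 or 12 (0.0857, 0.0814 and 0.0929), without accumbens animal 10 and amygdala animal 8 (0.0655), with a fixed replicate block (-2.21, adjusted p = 0.077), with a trend and robust prior (0.0539) or with all 24 arrays (0.105). Of 8 listed choroid plexus markers 3 were measured, and Aqp1, which encodes a water channel, was higher in accumbens (0.60 ± 0.04). The part of choroid plexus RNA was not tested.

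Of 23 listed markers of pallial glutamatergic neurons 19 were measured: 12 were called lower in accumbens, 1 higher and 6 not called. The share lower was near the 52.4% of all genes called lower. After quantile normalization 11 were lower, where 33.3% of all genes were, and with all 24 arrays 10, where 37.4% were. At least 2-fold lower were 5 markers, and 1 with all 24 arrays. The median of the list was -0.62, against -0.11 over all genes, and -0.62 after quantile normalization. The mean level of the list was 9.64 to 9.89 in accumbens and 10.04 to 10.51 in amygdala. Its median was 10.39 in striatum and 10.61 in both frontal cortex and hippocampus. The striatum median thus lay inside the amygdala range, so in these data the list did not set striatal and cortical tissue clearly apart. Slc17a6, the vesicular glutamate transporter VGLUT2, ran from 9.47 to 10.30 and from 10.34 to 11.51 (-1.17 ± 0.11). Its median was lowest in frontal cortex, however, at 8.59 against 9.80 in accumbens, so in these data it did not mark cortical tissue. Fezf2, a factor of deep-layer projection neurons, ran from 6.95 to 7.97 and from 8.37 to 9.33 (-1.21 ± 0.13). Neurod1, a neuronal differentiation factor (-1.09), Nptx1, a secreted pentraxin (-1.05), and Nrn1, neuritin (-1), were likewise without overlap, and so was Grp, the precursor of gastrin-releasing peptide (-1.03 ± 0.10).

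Slc17a7, the transporter VGLUT1 of cortical neurons, was not called: 10.65 to 11.76 in accumbens and 10.68 to 12.30 in amygdala (-0.19 ± 0.16, adjusted p = 0.31; without animal 2 it was -0.34, adjusted p = 0.0473). Lamp5, a membrane protein of cortical and striatal neurons, was the 1 member called higher (0.56 ± 0.06). Among 30 developmental transcription factors 14 were called higher and 11 lower (18.8% and 52.4% over all genes). Foxp1, expressed in spiny neurons (1.14 ± 0.08), and Meis2, expressed in the lateral ganglionic eminence and its derivatives (0.89 ± 0.05), were higher without overlap, and Lhx2, a factor of cortical identity, was lower (-0.88 ± 0.07).

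The check of the amygdala label by genes of its central and medial nuclei did not separate the regions. Of 18 listed genes 10 were measured, 3 were called higher in accumbens and 4 lower, and the mean level was 9.16 to 9.42 in accumbens and 9.21 to 9.41 in amygdala. Beside Pnoc, Crh and Gal given above, Tacr3, the neurokinin B receptor, was lower in accumbens (-0.41 ± 0.05). Sst, the somatostatin precursor, ran from 11.93 to 12.23 and from 11.97 to 12.39 (-0.15, adjusted p = 0.0164) and was not called after quantile normalization (-0.03, adjusted p = 0.599) or with all 24 arrays (0.2). Calcrl, part of the CGRP receptor, differed by 0.18 (adjusted p = 0.0159) and was not called after quantile normalization (adjusted p = 0.119) or with all 24 arrays (0.401).

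GABA synthesis genes and GABA receptors went in different directions. Gad2, which encodes the glutamate decarboxylase GAD65, ran from 9.91 to 10.62 in accumbens and from 9.29 to 9.80 in amygdala (0.65 ± 0.07; 0.25 and adjusted p = 0.468 with all 24 arrays). Gad1, which encodes GAD67, differed by 0.47 ± 0.04 and Slc32a1, the vesicular GABA transporter, by 0.59 ± 0.06, both without overlap. Gabbr2, a subunit of the GABA-B receptor, ran from 10.78 to 11.52 and from 11.92 to 12.45 (-1.06 ± 0.07). Of 8 GABA-A subunits 6 were called lower, Gabra2 (-0.56 ± 0.06) and Gabra5 (-0.46 ± 0.06) with the largest differences, beside 52.4% of all genes. Gabrd, the delta subunit, was called higher (0.14 ± 0.04) but not with all 24 arrays (0.03, adjusted p = 0.826). After quantile normalization 5 were lower and 2 higher.

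Of 12 ionotropic glutamate receptor subunits 9 were called lower and none higher, where 52.4% of all genes were called lower. With the probe set of smallest p for each gene, 10 were lower and 1 higher. After quantile normalization 5 were lower, near the 33.3% of all genes under that scaling. Grik5, a kainate receptor subunit (-0.63 ± 0.04), and Grin1, the obligatory NMDA receptor subunit (-0.54 ± 0.03), were lower without overlap. Among metabotropic receptors Grm4 was higher (0.75 ± 0.06) and Grm2 lower (-0.73 ± 0.12). Of 6 serotonin receptors 5 were called higher, where 18.8% of all genes were, with a median of 0.53; with all 24 arrays 3 were called and the median was 0.36. Htr4 ran from 8.75 to 9.38 and from 7.75 to 8.27 (0.92 ± 0.07), Htr2c from 12.69 to 13.07 and from 12.27 to 12.62 (0.44 ± 0.05), and Htr1d differed by 0.61 ± 0.08. Htr2a differed by 0.72 ± 0.07 and was not called with all 24 arrays (adjusted p = 0.326). Of 8 genes of acetylcholine synthesis and reception 5 were called higher and 2 lower, among them Slc5a7, the choline transporter of cholinergic neurons (0.93 ± 0.13, overlapping), and the muscarinic receptors Chrm5 (0.74 ± 0.04) and Chrm4 (0.45 ± 0.07).

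Genes of retinoid metabolism differed on both sides. Stra6, which encodes a retinol uptake receptor, ran from 9.20 to 9.39 in accumbens and from 8.44 to 8.73 in amygdala (0.69 ± 0.03), in the direction of Rarb. Cyp26b1, which degrades retinoic acid, ran from 8.88 to 9.72 and from 9.66 to 10.63 (-1.04 ± 0.11). The list as a whole had 7 called higher and 7 lower of 16 measured (18.8% and 52.4% over all genes), and its median of -0.14 was 0.01 after quantile normalization.

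Immediate early genes, which neuronal activity induces, did not move together. Fos ran from 9.85 to 10.55 in accumbens and from 8.57 to 9.78 in amygdala (0.85 ± 0.13), whereas Jun, which encodes its partner in the AP-1 factor, ran from 9.80 to 10.23 and from 10.69 to 10.95 (-0.89 ± 0.04). Both were without overlap. Nr4a1 (0.67 ± 0.10) and Dusp1 (0.46 ± 0.11) were higher with overlapping arrays. Of 15 members 7 were called higher and 4 lower, where 18.8% and 52.4% of all genes were, and 6 and 1 after quantile normalization, with a median of -0.02 that turned to 0.11.

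A short list of ventral striatum genes, 4 of 8 measured, was divided: Cartpt and Nts, given above, were called higher, and Wfs1, the endoplasmic reticulum protein wolframin (-0.51 ± 0.06), and Crym, a thyroid hormone binding crystallin (-0.33 ± 0.07), were called lower with overlapping arrays.

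Ion channels and adhesion genes were divided too; over all genes 18.8% were called higher and 52.4% lower. Of 33 potassium channel genes 17 were called higher and 12 lower, with Kcna5, a delayed rectifier subunit (0.98 ± 0.06), and Kcnj6, the GIRK2 subunit (-0.91 ± 0.09), at the ends. Of 23 calcium and sodium channel genes 8 were higher and 11 lower; beside Scn4b, Cacnb4, a calcium channel beta subunit, was higher (0.61 ± 0.06) and Cacng3, an AMPA receptor auxiliary protein, lower (-0.64 ± 0.06). Of 39 axon guidance and adhesion genes 14 were higher and 15 lower. Ntn1, the guidance cue netrin-1, ran from 9.33 to 9.97 and from 8.35 to 8.83 (1.06 ± 0.07), and Pcdh8, a protocadherin, from 8.86 to 9.32 and from 10.05 to 10.55 (-1.19 ± 0.07). Plxnd1, a semaphorin receptor, differed by -0.66 ± 0.05. The medians of the last 2 lists, -0.05 and -0.04, turned to 0.02 and 0.07 after quantile normalization.

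Markers of glia are set beside the 18.8% of all genes called higher and the 52.4% called lower, which were 30.7% and 33.3% after quantile normalization. Of 12 oligodendrocyte and myelin genes 10 were called higher in accumbens and none lower, with a median of 0.32, and 12 after quantile normalization. With all 24 arrays 7 were called higher, in NP alone 4 and in the congenic line alone 10. The mean level of the list was 11.98 to 12.25 in accumbens and 11.43 to 12.47 in amygdala, with animal 8 the highest. Ermn, a cytoskeletal protein of myelinating cells, ran from 11.22 to 11.68 and from 10.43 to 11.54 (0.57 ± 0.10), and Mog, a myelin glycoprotein, from 11.60 to 11.98 and from 10.95 to 12.29 (0.47 ± 0.11), with amygdala animal 8 the highest. Of 13 astrocyte markers 10 were called lower, and 8 after quantile normalization. Agt, the angiotensinogen gene of astrocytes, ran from 10.53 to 11.48 and from 11.50 to 12.76 (-1.16 ± 0.13), Aldh1l1 from 9.75 to 10.03 and from 10.38 to 11.07 (-0.80 ± 0.06), and Gjb6, which encodes the astrocyte connexin 30, differed by -0.69 ± 0.08. Of 10 microglia markers 8 were lower and 1 higher, and 7 were lower after quantile normalization, among them C1qc, a complement subunit (-0.49 ± 0.05), and Tyrobp, a signalling adaptor (-0.46 ± 0.07). With the probe set of smallest p for each gene, 7 microglia markers were lower and 2 higher.

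Interneuron markers beside Vip and Npy included Calb1 (-0.61 ± 0.08), the calcium buffer calbindin, without overlap, and Reln (-0.67 ± 0.08), the reelin gene, for which accumbens animal 10 read 11.63 and overlapped the amygdala range of 11.44 to 11.88. Of 12 meningeal and fibroblast markers 4 were lower and none higher, less than the 52.4% of all genes called lower, and none was called by limma with all 24 arrays. Of 10 endothelium markers 5 were lower and 1 higher (1 and 3 after quantile normalization), near the share over all genes, and of 6 hippocampal markers 3 were lower and 1 higher. In these mixed samples the cell type shares behind such values were not measured.

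**Figure D4:**
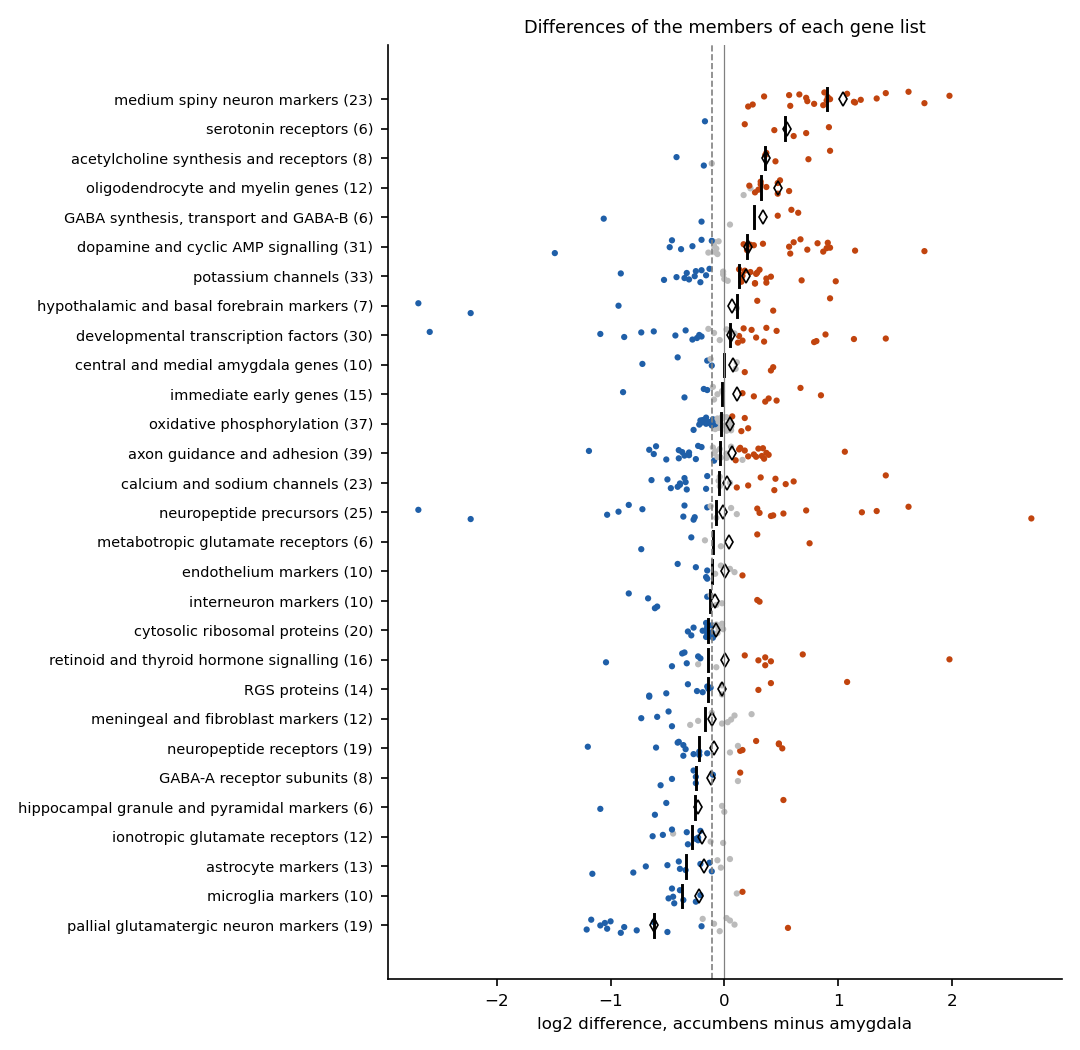
Log2 differences (accumbens minus amygdala) of the measured members of each gene list with at least 5 of them (number in brackets); orange and blue points were called higher and lower, grey points not called, black bars are list medians, diamonds medians after quantile normalization, and the dashed line is the median of all genes (-0.11). Medium spiny neuron markers had a median of 0.90 and pallial glutamatergic markers of -0.62.

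The other 3 regions of the series placed the 83 genes further. Of the 27 genes at least 2-fold higher in accumbens, the median level was highest in accumbens for 18, in striatum for 7, and in frontal cortex and hippocampus for 1 each. Cartpt stood at 12.01 in accumbens and at 9.31 in striatum, and Nmbr at 9.58 and 7.67, whereas Drd1 (12.54 and 12.51) and Tac1 (12.35 and 12.20) had like medians in both. Drd2 and Scn4b were higher in striatum (11.54 and 13.29) than in accumbens (10.45 and 12.12). Nts had its highest median in hippocampus (10.65), close to accumbens (10.51). Of the 56 genes at least 2-fold lower, the highest median was that of amygdala for 29, of hippocampus for 14, of frontal cortex for 12 and of striatum for 1. Nr2f2 stood at 11.54 in amygdala, 10.49 in hippocampus and 8.77 in frontal cortex, and Slc17a6 at 11.10, 10.22 and 8.59. Bhlhe22 and Cst6 were highest in hippocampus (12.88 and 10.51), and Fezf2 in frontal cortex (10.09). The arrays of these 3 regions were used as deposited, with no test.

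**Figure D5:**
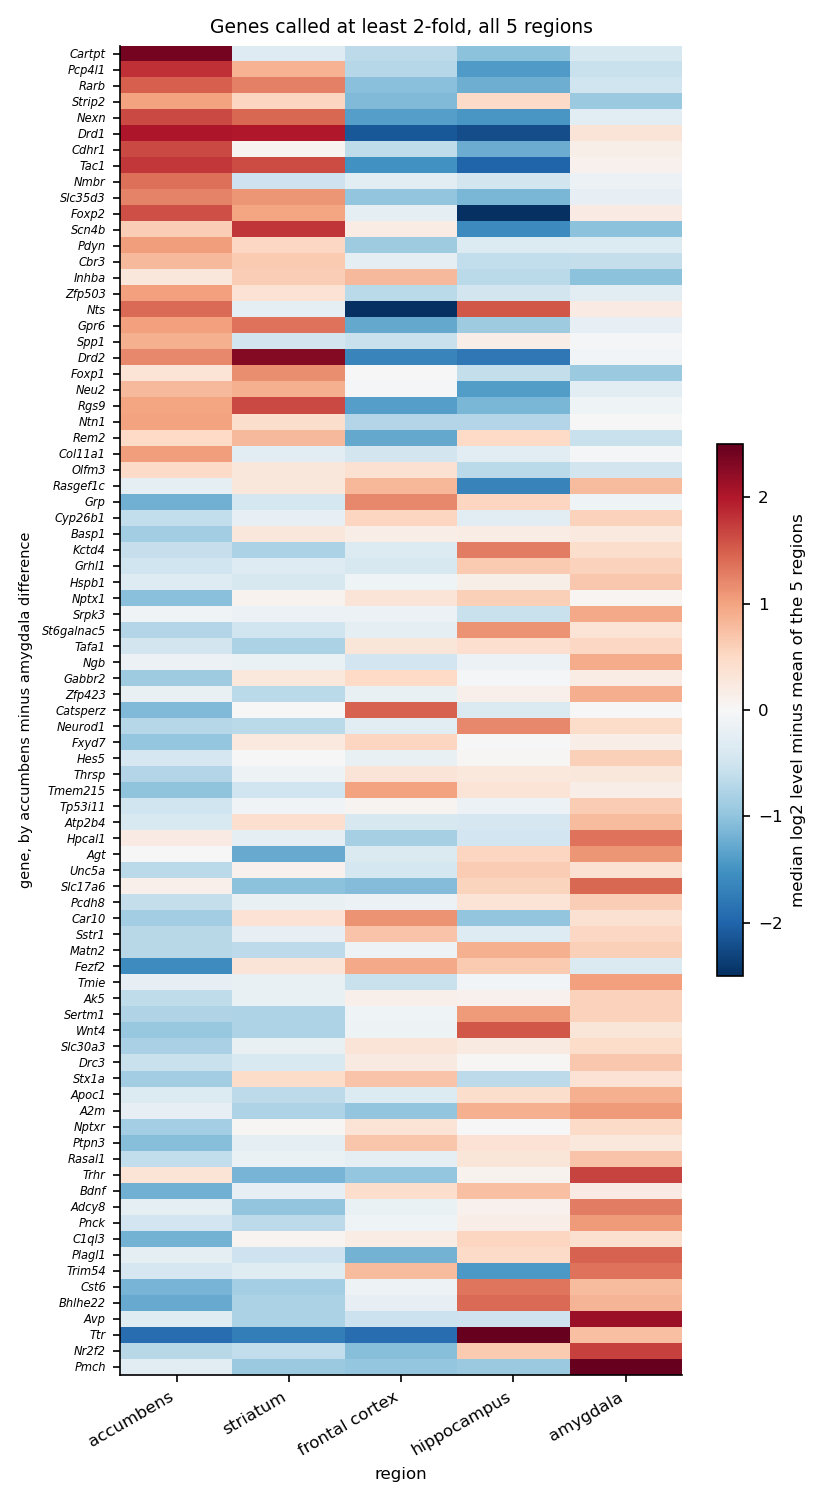
Median log2 levels of the 83 genes called at least 2-fold, in 5 regions, each gene centred on the mean of its regions and sorted by the accumbens minus amygdala difference; values beyond the colour scale take its end colour. Cartpt stands alone in accumbens (12.01, striatum 9.31), Drd1 is shared with striatum (12.54 and 12.51), and Bhlhe22 and Cst6 are highest in hippocampus.

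The contrast was made in both lines. Within NP, 9606 of the probe sets passed (51.6%), with accumbens the higher in 3297 (17.7%) and the lower in 6309 (33.9%). Within the congenic line 11677 passed (62.7%), with accumbens the higher in 3543 (19%) and the lower in 8134 (43.7%). Whether the region difference itself varied with line was tested by the interaction of region and line: 31 of 18625 probe sets were called (0.166%), 29 with a more positive difference in the congenic line, and 2188 had an unadjusted p under 0.05 (11.7%). With no replicate block, all 24 arrays or quantile normalization the number called by limma was 0. Leaving out 1 animal at a time gave 0 without animal 1, 2, 4, 5, 10 or 12, 1 without animal 3 or 7, and 59, 75, 89 and 141 without animals 6, 8, 9 and 11.

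Cplx2, complexin 2 of the presynaptic release machinery, had accumbens values of 7.94, 8.55, 9.10, 9.24 and 9.33 and amygdala values of 9.94, 9.97, 10.04, 10.10 and 10.10 in NP. In the congenic line the accumbens read 9.17, 9.28, 9.40, 9.55 and 9.71 and the amygdala 8.38, 9.09, 9.20, 9.44 and 9.51. The region difference was -1.21 in NP, where the arrays did not overlap, and 0.31 in the congenic line, a difference between lines of 1.52 (adjusted p = 0.0467). Tbr1, a factor of cortical projection neurons, had region differences of -0.51 and 0.55, Grm5, a metabotropic glutamate receptor, of -0.67 and 0.34, and Prkaa2, a catalytic subunit of AMP-activated kinase, of -0.33 and 0.38 in NP and congenic (each adjusted p = 0.0467). None of these 4 was called with no replicate block (adjusted p = 0.143 for each). Nor was any of them called after quantile normalization, with all 24 arrays or with a trend and robust prior. In all 4 genes accumbens animal 7 read lowest of the NP accumbens arrays and amygdala animal 2 lowest of the congenic amygdala arrays. Camk2n2, an inhibitor of calcium/calmodulin kinase II, had region differences of -0.63 and -0.02 and was not called between lines (adjusted p = 0.0602); it was called with a fixed replicate block (0.76, adjusted p = 0.04) and without animal 6, 9 or 11 (0.0495, 0.0381 and 0.0483).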

How the data were processed

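Total RNA of 5 brain regions of 12 rats was hybridized on 60 Affymetrix rat arrays, 1 region of 1 animal per array, and 20 arrays entered the contrast. The authors deposited 1 value per probe set on a log2 scale, between 4.58 and 16.01, as the values show; the summarization and normalization behind them are not described in the labels or file headers. Genes were named from the platform annotation: of 31042 probe sets 20826 had 1 symbol, 436 several and 9780 none. Probe sets with a mean under 7.68 were left out. Region and line were fitted with limma 3.58.1 in R 4.3.3, with the animal as a random block (consensus correlation 0.103) and Benjamini-Hochberg adjustment over 18625 probe sets. A test on simulated data recovered 72.1% of differences of 0.25 and 100% of those of 0.5, with 10 false calls. It changed only a few of the 18625 probe sets and gave both regions the same array shape. Its number of false calls therefore does not carry over to the calls made here.

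The animal number in the titles pairs the samples. Deviations of the 2 regions correlated by 0.143 on average within the 8 animals with both (0.016 to 0.233), by -0.0119 between animals, and 1 of the 8 correlated best with its own number. The rule for naming allows the 15 highest and 15 lowest called genes, up to 6 called and 2 uncalled genes of each of 34 lists, up to 5 genes by the p of the interaction, and any measured neuropeptide precursor, dopamine receptor or opioid receptor. Of 242 genes that it allows or that the text describes, 122 are described, and which of them was decided with values known. Adora2a and Lamp5 lie outside the rule and were chosen after their values were seen. The members and lists were chosen with earlier results of these data known. Alternatives were other filters, scalings, blocks and thresholds, a probe set chosen by p, all 24 arrays, each animal left out and, chosen after seeing the data, accumbens animal 10 and amygdala animal 8 left out. Promoters came from RefSeq (GRCr8). Figures were drawn with matplotlib 3.10.9. The number of arrays limits the precision.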

Additional observations from a re-analysis of the deposited data

Results flagged for a closer look

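Among 234 groups of 10 arrays (117 genes in 2 regions), 25 had 1 array set far apart from the other 9; chance sets 1 apart in about 1 in 20 groups. Of these, 11 were accumbens animal 10 and 10 were amygdala animal 8. In accumbens, animal 10 read high for Adcy8 (8.80), Cdhr1 (11.97), Inhba (9.93), Nmb (9.45), Npy (12.46) and Reln (11.63). It read low for Drd1 (11.91), Nexn (9.30), Nr4a1 (10.46), Oprk1 (8.81) and Pdyn (11.98). In amygdala, animal 8 read low for Bhlhe22 (11.47), Jun (10.69), Kcnj6 (10.16), Neurod1 (9.01), Nptxr (13.23), Nrn1 (12.20) and Sstr1 (10.58), and high for Gal (8.92), Mog (12.29) and Pcp4l1 (9.85). The others were single arrays: Aldh1l1 in accumbens animal 6 (9.75), Slc17a7 in accumbens animal 7 (10.65), Chrm4 in amygdala animal 10 (7.85) and Plagl1 in amygdala animal 11 (8.96). What sets these arrays apart was not tested.

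The region difference was called as varying with line, by the interaction in limma, for Cplx2 (1.52, congenic minus NP), Tbr1 (1.06), Grm5 (1.01) and Prkaa2 (0.71), each at an adjusted p of 0.0467. None of them was called after quantile normalization, with all 24 arrays or with no replicate block. The calls were also lost without animal 1, 2, 3, 4, 5, 7, 10 or 12.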

How the results depend on the processing

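For the 117 genes whose region difference is described, 2834 values under the alternatives kept their direction and side of the threshold, 50 lost the call and 4 gained it. Over 242 genes that the naming rule allows or the text describes, quantile normalization gave 17 a call, took it from 12 and turned the sign of 17, of which 1 had been called before and 2 were called after. With all 24 arrays 27 of the 242 lost the call, 1 gained it and 13 turned sign, none of them called either way. The 12871 probe sets called became 21038 with no filter and 2828 when tested against a 1.2-fold difference, 11954 with a fixed replicate block and 12629 with no replicate block, and 12376 to 12855 with 1 animal left out. The balance of directions moved with the filter. With no filter 11132 were higher and 9906 lower, and with the 60th percentile filter 1792 and 7042, against 4132 and 8739. The shares of all genes set beside the lists hold for the 40th percentile filter. At least 2-fold, 131 became 122 to 137 with 1 animal left out. The calls became 15835 in NP and 18498 in the congenic line with no filter (7875 to 9728 and 10449 to 11213 with 1 animal left out), and 5156 in the congenic line with all 24 arrays. Calls that varied with line, 31, became 0 with no replicate block, all 24 arrays, all 5 regions in 1 fit, the 60th percentile filter, quantile normalization, a 1.2-fold test, a trend and robust prior or an adjusted p under 0.01. They became 146 with a fixed replicate block, 57 with no filter, and 0 to 141 with 1 animal left out. After quantile normalization the list medians turned to 0.07 for axon guidance, 0.02 for calcium and sodium channels, 0.01 for endothelium, 0.11 for immediate early genes, 0.04 for metabotropic glutamate receptors, 0.05 for oxidative phosphorylation and 0.01 for retinoid genes; with the probe set of smallest p that of developmental transcription factors was -0.01. The cause was not tested. Probe sets below the filter were tested only in the setting with no filter, and how close their signal lay to background was not measured. Small differences move with the scaling.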
